A study of Mus musculus with 4 samples.

Results

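Collagen genes were taken as every gene symbol made of Col, a number, the letter a and a second number, which gave 42 of the 18143 genes counted. Their transcripts were followed in single spiral ganglion neurons of the adult mouse cochlea, across 5 populations that the authors annotated among 6713 cells. These were 505 putative neurons, 95 type II neurons and 3 subtypes of type I neurons, of which IA numbered 2384 cells, IB 1625 cells and IC 2104 cells. The 4 donor mice were untreated wild-type males of the CBA/CaJ strain aged 9 weeks, and every population was present in every mouse, so a mouse is the replicate (n = 4) and genotype, age and sex are common to all groups. The modiolus was dissected with neighbouring limbus, sulcus and organ of Corti tissue and digested with collagenase IV and papain, so RNA of fibroblasts, fibrocytes, glia and bone could enter the droplets. The question put to the collagen genes was which of them differed between the neuron populations and which moved with the markers of those other cells. The labels were assigned to the same cells whose transcripts are compared, so a gene that separates them is not an independent finding.

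Collagens are extracellular matrix proteins wound from alpha chains of one or several genes. Fibril-forming collagens build the fibres of bone, cartilage, skin and the tectorial membrane, the fibril-associated collagens (FACIT) sit on their surface, type IV collagens build basement membranes such as those around Schwann cells and vessels, and a few members span the cell membrane. Fibroblasts, chondrocytes and bone cells are their best known sources, while Schwann cells and some neurons also make particular members.

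The counts are unique molecular identifiers (UMIs), each standing for 1 captured transcript near its 3′ end, so they are not scaled by gene length, and capture can differ between genes. A level is a gene's UMIs per 1000000 UMIs (CPM) of the sum over the cells of 1 mouse and population. The 20 sums held 131668 to 10156321 UMIs, and type II in mouse 2 was both the smallest sum and the one with the fewest cells, 15. All 4 type II markers (Prph, Th, Calca and Gata3) passed the test as higher in type II than in type I, where their summed level was 472 to 1522 CPM in type II and 33.0 to 55.2 CPM in type I.

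Collagen transcripts were a minor part of the RNA, 26155 of 86572150 UMIs (0.0302%). FACIT genes gave 47.2% of the collagen UMIs and fibril-forming genes 39.1%, with type IV genes at 5.02%, multiplexins at 3.15% and the hexagonal network genes at 2.68%. The 4 most abundant genes were Col9a3, Col27a1, Col1a2 and Col14a1, and they held 58.5% of the collagen UMIs. Col9a3, a chain of the FACIT type IX, had 6689 UMIs and held 25.6% alone. At the other end, 9 of the 42 genes had under 50 UMIs in all cells together. The level of all 42 genes summed was 432 ± 85.1 CPM in putative neurons and 352 ± 85.0 CPM in type II (SD over mice). Among the subtypes it was 294 ± 32.9 CPM for IA, 309 ± 20.0 CPM for IB and 293 ± 27.6 CPM for IC. The putative sum was 1.44 ± 0.181 times that of the type I mean, and above it in every mouse (1.21 to 1.60). The type II ratio was 1.19 ± 0.325 and ran from 0.881 to 1.52, on both sides of 1.

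**Figure D1:**
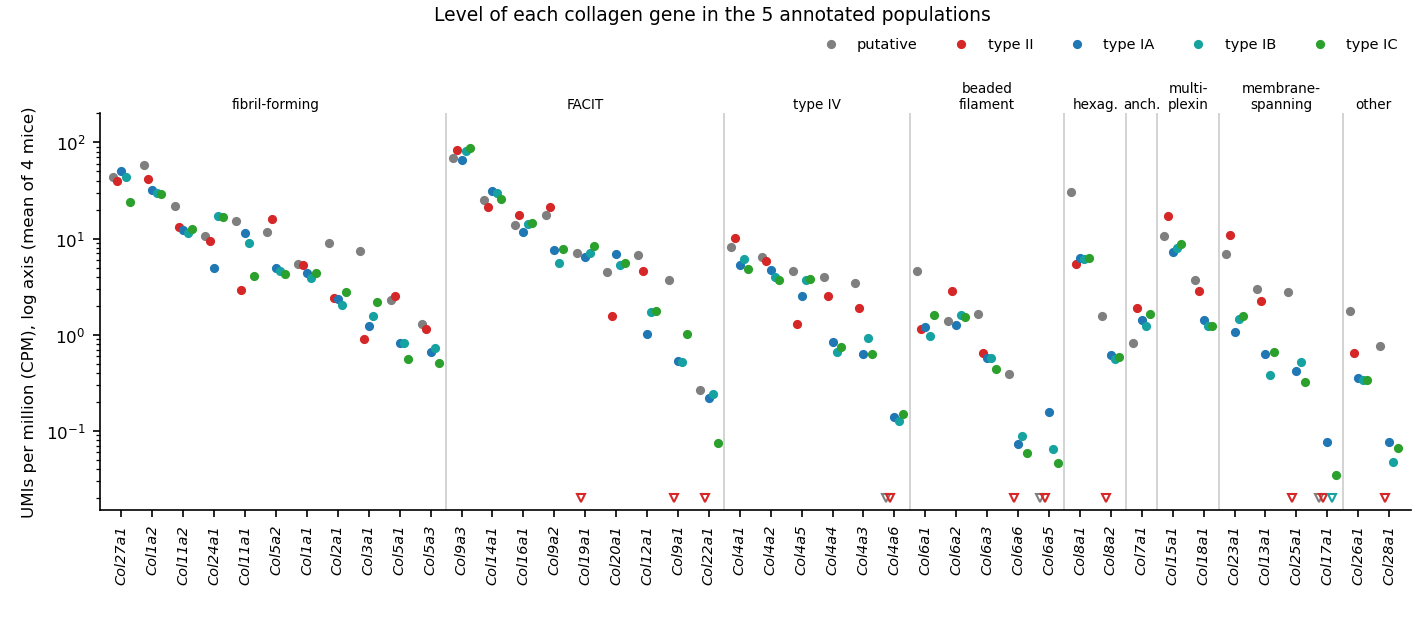
Mean level over 4 mice of each of the 42 collagen genes in CPM (log axis), grouped by collagen class, with 1 point per annotated population and open triangles where a population had no UMI. Col9a3, Col27a1, Col1a2 and Col14a1 lie highest, and Col8a1 stands far higher in putative neurons than in any other population.

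Of the 42 genes, 28 had enough UMIs for the test and 14 did not. The 14 held 3 to 123 UMIs each, were at most 1.43 CPM over all cells (Col7a1, the anchoring fibril collagen) and are not counted below. Differences were tested with edgeR's quasi-likelihood test on the sums, with the mouse as a block and Benjamini-Hochberg adjustment over all 13005 genes tested, at an adjusted p under 0.05. By this rule 19 of the 28 genes differed in at least 1 of 5 comparisons and 9 in none. The matching share of all genes was not computed. Single comparisons called 11.8% to 32.3% of all genes in either direction, so the count alone does not set collagen genes apart.

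Type I subtypes differed in a few fibril-forming genes, and these had opposite patterns. Col24a1, which encodes the minor fibril-forming collagen XXIV known from developing bone and cornea, was lower in type IA than in both other subtypes. Col27a1, the fibril-forming collagen XXVII of cartilage, and Col11a1, a chain of the cartilage and tectorial membrane collagen XI, were higher in types IA and IB than in IC. The 250 bases before the RefSeq start of each of these genes are given because the 3 genes carry the subtype pattern (GRCm38.p6, plus strand, no annotated exon of the same strand inside). Col24a1 lies at chr3:145292222-145292471, Col11a1 at chr3:114030290-114030539 and Col27a1 at chr4:63215162-63215411, and capitals mark motif matches.
Col24a1: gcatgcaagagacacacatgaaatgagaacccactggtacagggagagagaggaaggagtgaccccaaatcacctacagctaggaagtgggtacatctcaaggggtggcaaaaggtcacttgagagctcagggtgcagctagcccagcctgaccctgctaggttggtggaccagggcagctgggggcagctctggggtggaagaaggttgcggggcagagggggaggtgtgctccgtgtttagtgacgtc
Col11a1: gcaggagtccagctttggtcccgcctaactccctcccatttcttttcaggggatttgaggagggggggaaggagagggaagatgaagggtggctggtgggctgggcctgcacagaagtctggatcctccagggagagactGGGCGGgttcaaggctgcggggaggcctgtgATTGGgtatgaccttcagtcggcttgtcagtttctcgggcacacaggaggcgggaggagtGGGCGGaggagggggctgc
Col27a1: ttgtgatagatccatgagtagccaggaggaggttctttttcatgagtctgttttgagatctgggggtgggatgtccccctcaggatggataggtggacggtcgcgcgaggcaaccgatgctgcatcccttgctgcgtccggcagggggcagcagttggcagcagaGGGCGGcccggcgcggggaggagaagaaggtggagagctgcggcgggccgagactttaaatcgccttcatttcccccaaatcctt

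These windows were searched on both strands for TATAAA (the TATA box), for CCAAT (the CCAAT box), for GGGCGG (the GC box), TGTGGT (the core of Runx sites) and ACAAAG (part of Sox sites), which do not overlap one another where they matched. Col11a1 held GGGCGG at 110 and 19 bases before its start and CCAAT on the other strand (written ATTGG) at 79 bases, Col27a1 held GGGCGG at 85 bases, and Col24a1 held none of the 5. Of 32851 mouse promoter windows of this length, 12.4% held TATAAA, 33.8% CCAAT, 32.7% GGGCGG, 14% TGTGGT and 16.5% ACAAAG. A match is a description of the letters and no sign that a factor binds. In the annotation of the same build, Col24a1 spans chromosome 3 from 145292472 to 145552011, Col11a1 chromosome 3 from 114030540 to 114220718 and Col27a1 chromosome 4 from 63214004 to 63334991, all on the plus strand. The Col27a1 window thus lies inside that gene span, downstream of the start annotated there, and precedes the RefSeq start only.

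In mice 1 to 4, Col24a1 stood at 4.34, 5.81, 2.76 and 6.66 CPM in type IA, at 13.8, 19.5, 16.2 and 19.1 CPM in type IB and at 14.8, 16.8, 18.6 and 16.4 CPM in type IC. Every type IA value lay under every value of the other subtypes, while types IB and IC overlapped. The log2 difference was -1.83 ± 0.15 between types IA and IB (SE, adjusted p = 9.71e-14) and -1.79 ± 0.15 between IA and IC (adjusted p = 1.25e-14), about 0.282 and 0.290 times the level. The gene was at 10.6 ± 4.45 CPM in putative neurons and 9.45 ± 5.26 CPM in type II, between the subtypes, and passed the test in neither comparison with the type I mean.

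Col27a1 stood at 46.9, 71.0, 29.5 and 53.1 CPM in type IA, at 47.2, 41.4, 40.8 and 44.4 CPM in type IB and at 26.6, 27.4, 20.6 and 20.9 CPM in type IC. Types IA and IB overlapped and both lay above type IC in every mouse. The log2 difference was 1.08 ± 0.11 for IA against IC (adjusted p = 5.18e-12) and 0.86 ± 0.12 for IB against IC (adjusted p = 8.94e-08). In putative neurons Col27a1 was at 43.8 ± 13.0 CPM and in type II at 39.2 ± 18.3 CPM, near the type I mean.

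Col11a1 stood at 12.0, 8.07, 11.8 and 13.3 CPM in type IA, at 8.12, 6.64, 8.62 and 12.8 CPM in type IB and at 3.92, 3.13, 3.36 and 5.97 CPM in type IC. Neither type IA nor type IB overlapped type IC, and type IA was above type IB in every mouse although their ranges overlapped. The log2 difference was 1.51 ± 0.16 for IA against IC (adjusted p = 1.92e-11) and 1.16 ± 0.17 for IB against IC (adjusted p = 1.29e-06).

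**Figure D2:**
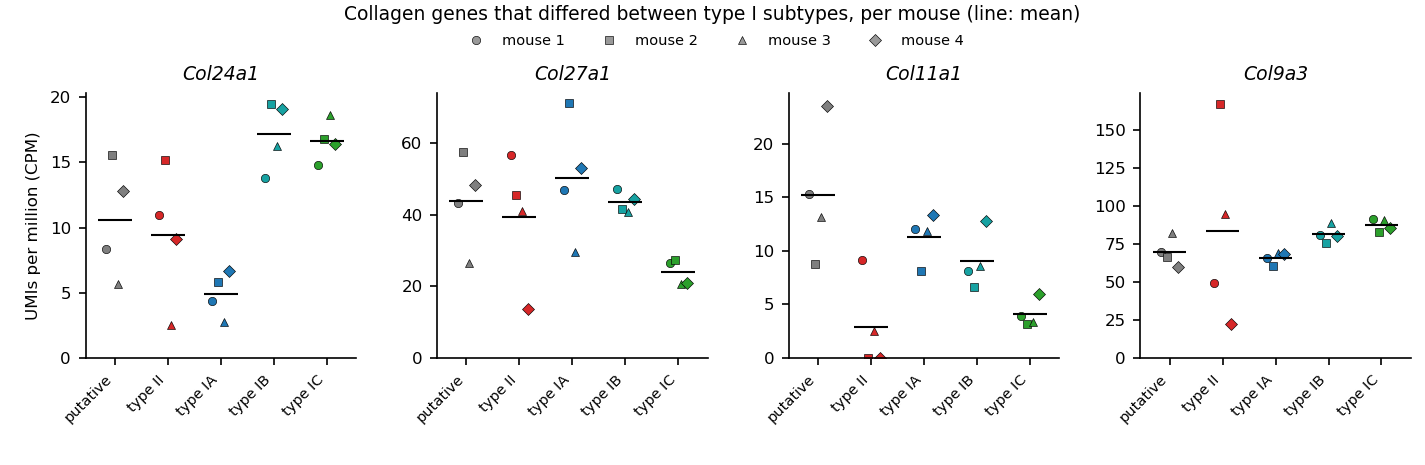
Level in CPM of 4 collagen genes in each mouse (marker shape) and population (x axis), with the mean as a line. Col24a1 lies lowest in type IA, Col27a1 and Col11a1 lie higher in types IA and IB than in IC, and Col9a3 lies lower in type IA than in types IB and IC.

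Among FACIT genes, Col9a3 and Col14a1 differed between subtypes by less. Col9a3 was at 66.1, 60.7, 69.2 and 68.3 CPM in type IA, at 81.0, 75.4, 88.7 and 80.1 CPM in type IB and at 91.6, 82.8, 91.0 and 85.8 CPM in type IC. Type IA lay under both other subtypes in every mouse with no overlap. The log2 difference was -0.40 ± 0.06 for IA against IC (adjusted p = 2.02e-06) and -0.30 ± 0.07 for IA against IB (adjusted p = 0.00123), and the second was lost without the mouse block (adjusted p = 0.201) and with DESeq2 (adjusted p = 0.236). Col14a1, the FACIT collagen XIV of skin and tendon, was at 27.2, 33.4, 30.4 and 34.8 CPM in type IA and at 24.5, 24.0, 24.4 and 31.0 CPM in type IC. The difference was 0.32 ± 0.09 (adjusted p = 0.00308) with overlapping groups, and it missed the threshold without the block (adjusted p = 0.0604) and without mouse 2 (adjusted p = 0.0648).

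In all, 3 of the 28 genes tested were higher in type IA than in IC and 2 lower, against 16.3% of all genes higher and 16% lower. None was higher in type IA than in IB and 2 were lower (7.4% and 8.19% of all genes, 15.6% in either direction), and 2 were higher and none lower in IB than in IC (6.37% and 5.47% of all genes, 11.8% in either direction). The comparisons share the same sums. For IA against IC the 5 calls among 28 collagen genes compare with 32.3% of all genes called in either direction, and the collagen median log2 difference was 0.0039 against -0.0068 for all genes tested.

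Marker lists of other cells are given beside these differences. The fibroblast list (14 genes, among them Dcn, Lum and Mgp) had a summed level of 0.918 ± 0.0352 times in IA relative to IC and 1.003 ± 0.0897 times in IB relative to IC, and of its 11 genes tested none passed in either comparison. For IA relative to IB it was 0.919 ± 0.0706 times, and Ogn, a small proteoglycan on the list, was lower (-0.26 ± 0.09, adjusted p = 0.0293). The limbus and fibrocyte list stood at 0.959 ± 0.0781 times in IA relative to IC and the Schwann cell list at 0.907 ± 0.0355 times. Relative to IB the Schwann cell list was 0.890 ± 0.0230 times in IA, below 1 in every mouse (0.857 to 0.908). It was therefore lower in type IA, as Col9a3 was, with 1 of its 8 genes called lower. The supporting cell list was 0.838 ± 0.0588 times in IA relative to IB, with 1 of 5 genes, Sox2, lower. Rgs5, a pericyte marker, was higher in IA than in IB (0.60 ± 0.18, adjusted p = 0.0168) and than in IC (0.49 ± 0.17, adjusted p = 0.0205). The part of these list levels in the collagen differences was not tested beyond leaving cells out, described below.

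Putative neurons differed from type I neurons by the largest number of collagen genes. Of the 28 genes tested 14 were higher and none was lower, against 14.2% of all genes higher, 9.13% lower and 23.3% in either direction, and the median log2 difference of the collagen genes was 0.88 against -0.0094 for all genes tested. Of the 10 fibril-forming genes tested 6 were higher, and the others were 2 of 7 FACIT genes, both membrane-spanning genes and 1 gene each of the type IV, beaded filament, hexagonal network and multiplexin classes. Values below set the 4 putative sums against the lowest, median and highest of the 12 type I sums.

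Col8a1, a chain of the hexagonal networks known from vessel walls and the cornea, moved with the smallest p. It was at 23.7, 41.8, 19.8 and 37.5 CPM in the putative neurons of mice 1 to 4, and at 4.69, 5.80 and 9.70 CPM (lowest, median, highest) in type I. The groups did not overlap. The log2 difference was 2.36 ± 0.18 (SE, adjusted p = 3.94e-15), a 5.12-fold level.

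Some fibril-forming genes of skin, bone and tendon were higher as well. Col1a1 (log2 difference 0.50 ± 0.38, adjusted p = 0.386) and Col5a1 (1.51 ± 0.64, adjusted p = 0.0806), further chains of collagens I and V, did not pass. Col1a2, a chain of the main collagen of connective tissue, was at 48.8, 62.4, 38.6 and 80.3 CPM in putative neurons, and at 26.0, 29.3 and 38.1 CPM in type I. Col3a1, a collagen of stretchable tissues, was at 2.79, 9.36, 4.71 and 12.8 CPM in putative neurons, and at 0.833, 1.71 and 2.49 CPM in type I. For both genes every putative value lay above the highest type I value. Col5a2, a chain of the collagen V that regulates fibril width, was at 13.9, 16.8, 7.54 and 8.56 CPM in putative neurons, and at 3.08, 4.54 and 6.45 CPM in type I. The log2 differences were 0.96 ± 0.11 for Col1a2 (adjusted p = 2.2e-09), 2.21 ± 0.35 for Col3a1 (adjusted p = 2.21e-06) and 1.39 ± 0.26 for Col5a2 (adjusted p = 3.33e-05). The Col5a2 difference missed the threshold without the cells with 3 or more Fabp7 UMIs (adjusted p = 0.100) and with cells above the median depth only (log2 difference 0.90, adjusted p = 0.0852).

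Chains of the cartilage and tectorial membrane collagens II, IX and XI were called too, but not every chain of type IX. Its most abundant chain, Col9a3, was not called (log2 difference -0.16 ± 0.11, adjusted p = 0.327), and Col9a1 was too low for the test. Col2a1, the main fibrillar collagen of cartilage, was at 5.57, 9.36, 9.43 and 11.8 CPM in putative neurons, and at 0.944, 2.30 and 4.29 CPM in type I. Col9a2, a chain of type IX, was at 12.5, 23.1, 13.2 and 21.4 CPM in putative neurons, and at 3.78, 7.47 and 9.51 CPM in type I. Neither gene overlapped between the groups. The log2 differences were 1.88 ± 0.31 for Col2a1 (adjusted p = 3.92e-06) and 1.37 ± 0.21 for Col9a2 (adjusted p = 7.84e-07). Col11a1 was at 15.3, 8.74, 13.2 and 23.5 CPM in putative neurons, and at 3.13, 8.10 and 13.3 CPM in type I, with a log2 difference of 0.98 ± 0.22 (adjusted p = 0.000497). Col11a2, the second type XI chain, was at 12.5, 15.6, 19.8 and 38.5 CPM in putative neurons, and at 9.78, 11.0 and 16.9 CPM in type I, with a log2 difference of 0.81 ± 0.18 (adjusted p = 0.000535). Both type XI genes overlapped between the groups, and Col11a2 missed the threshold without mouse 4 (log2 difference 0.57, adjusted p = 0.0717).

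Among members that span the cell membrane, Col23a1 was at 8.36, 8.11, 3.77 and 7.49 CPM in putative neurons, and at 0.724, 1.39 and 1.82 CPM in type I, with no overlap. Col13a1, known from the neuromuscular junction, was at 6.97, 1.87, 0.943 and 2.14 CPM in putative neurons, and at 0.289, 0.512 and 0.932 CPM in type I. The log2 differences were 2.31 ± 0.36 for Col23a1 (adjusted p = 1.35e-06) and 2.17 ± 0.58 for Col13a1 (adjusted p = 0.00448). Col13a1 rested on 11 putative UMIs, and without mouse 1 it missed the threshold (adjusted p = 0.151).

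The other genes called in putative neurons were low. Col4a4, a chain of the type IV collagen of special basement membranes, was at 2.79, 4.99, 2.83 and 5.35 CPM in putative neurons, and at 0.373, 0.664 and 1.28 CPM in type I. Col6a1, of the beaded filaments around cells, was at 2.79, 7.49, 2.83 and 5.35 CPM in putative neurons, and at 0.497, 1.29 and 1.90 CPM in type I. Neither overlapped between the groups. Col12a1, a FACIT of tendon and muscle, was at 6.97, 3.12, 2.83 and 13.9 CPM in putative neurons, and at 0.579, 1.51 and 2.98 CPM in type I. Col18a1, a basement membrane multiplexin, was at 0, 1.87, 7.54 and 5.35 CPM in putative neurons, and at 0.503, 1.00 and 2.29 CPM in type I. These last 2 genes overlapped between the groups, and Col18a1 was higher in 3 of 4 mice. The log2 differences were 2.35 ± 0.47 for Col4a4 (adjusted p = 0.000122), 1.98 ± 0.40 for Col6a1 (adjusted p = 0.00015), 1.99 ± 0.38 for Col12a1 (adjusted p = 6.42e-05) and 1.54 ± 0.48 for Col18a1 (adjusted p = 0.015). Without mouse 2 Col6a1 missed the threshold (adjusted p = 0.0575), and so did Col18a1 without mouse 3 (log2 difference 0.78, adjusted p = 0.411) and without mouse 4 (adjusted p = 0.0569). With cells above the median depth only, Col18a1 missed it as well (adjusted p = 0.159). In all, 10 of the 14 genes had every putative value above every type I value. The 14 were picked by the test on these same sums. The share of all genes separated in this way was not computed, so the count only describes them.

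Markers of many other cells were higher in putative neurons as well. The fibroblast list had a summed level of 407 to 797 CPM in putative neurons and 144 to 221 CPM in type I, 3.42 ± 0.618 times the type I mean, and all 11 of its genes tested were higher (none of its 14 genes was at 0). The limbus and fibrocyte list stood at 3.13 ± 0.167 times, with 5 of 5 genes higher. The satellite glia list stood at 6.32 ± 0.719 times with 4 of 5 genes higher, the endothelial list at 2.60 ± 0.621 times with 6 of 7, and the pericyte and smooth muscle list at 2.41 ± 0.827 times with 6 of 7. The Schwann cell list was at 0.935 ± 0.0312 times (1 of 8 genes higher and 2 lower) and the neuron list at 0.797 ± 0.0796 times, with 7 of 8 genes lower. Collagen genes that did not pass in this comparison included the abundant Col9a3 and Col14a1, with log2 differences of -0.16 ± 0.11 and -0.16 ± 0.15. The part of these cells in the putative collagen levels was not tested, and carried-over RNA and expression in the cells cannot be told apart within a population.

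**Figure D3:**
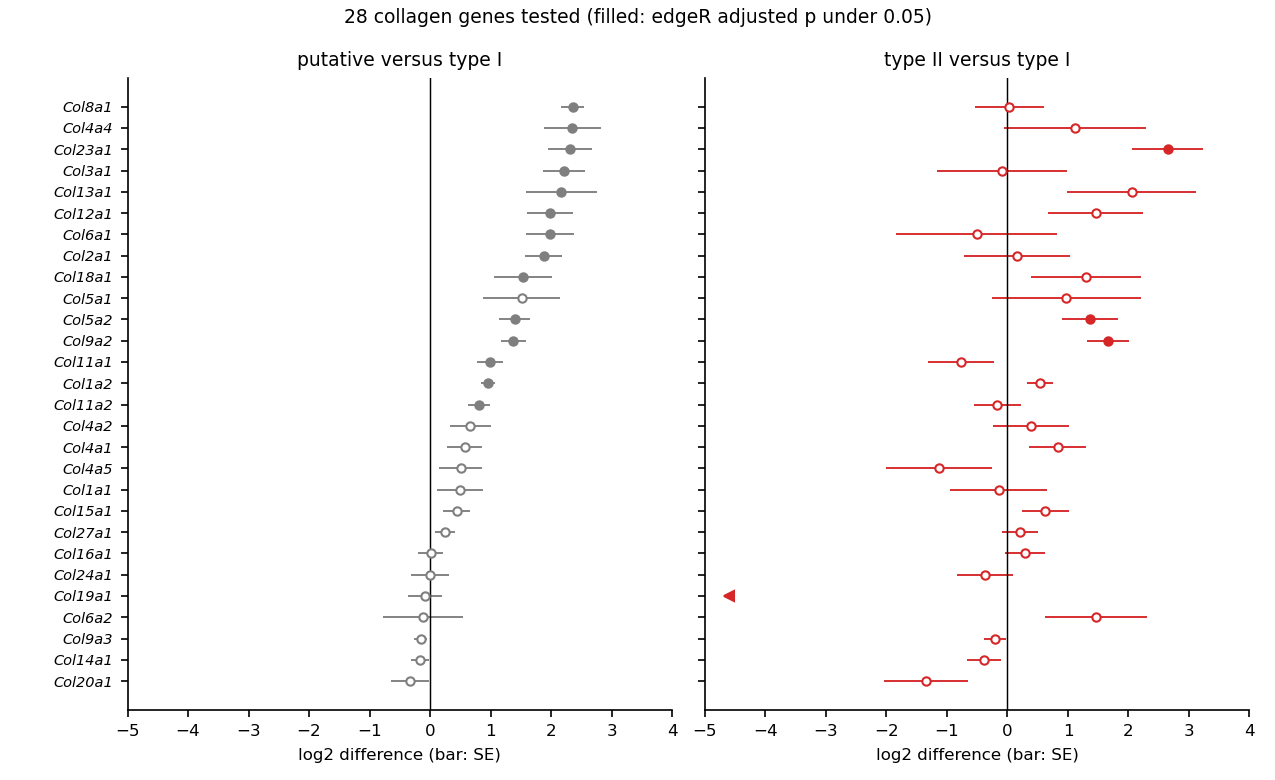
Log2 differences of the 28 collagen genes tested, in putative neurons against type I (left) and in type II against type I (right), with SE as bars and filled points where the edgeR adjusted p is under 0.05. In putative neurons 14 points are filled, all to the right of 0, and in type II 3 are filled to the right while the arrow marks Col19a1, which had no UMI in type II.

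Type II neurons differed from type I in 4 collagen genes. Of the 28 tested 3 were higher and 1 was lower, against 11.9% of all genes higher, 11.5% lower and 23.4% in either direction. With 95 cells and 1288798 UMIs, 3 UMIs over the group amount to 2.33 CPM, so low genes could not be followed. Col23a1 was at 1.83, 15.2, 12.8 and 13.6 CPM in type II, and at 0.724, 1.39 and 1.82 CPM in type I (lowest, median, highest). Col5a2 was at 5.49, 22.8, 7.68 and 27.3 CPM in type II, and at 3.08, 4.54 and 6.45 CPM in type I. Col9a2 was at 18.3, 7.59, 23.1 and 36.4 CPM in type II, and at 3.78, 7.47 and 9.51 CPM in type I. Mouse 1 lay near the type I values for the first 2 genes, and mouse 2 for Col9a2, which was higher in 3 of 4 mice. The log2 differences were 2.65 ± 0.58 for Col23a1 (adjusted p = 0.000375), 1.36 ± 0.46 for Col5a2 (adjusted p = 0.0239) and 1.66 ± 0.35 for Col9a2 (adjusted p = 0.000172).

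The 3 genes were higher in type II cells with many transcripts of a glial gene, in counts pooled over mice. Cells with 3 or more UMIs of Fabp7, a fatty acid binding protein of satellite glia, made up 38 of the 95 type II cells and 28.0% of their UMIs. Col23a1 was at 22.2 CPM in these cells and 3.23 CPM in the other type II cells, Col5a2 at 27.8 and 5.39 CPM, and Col9a2 at 38.9 and 15.1 CPM. These levels rest on few UMIs, since the Fabp7 cells held 8 of the 11 Col23a1 UMIs, 10 of the 15 of Col5a2 and 14 of the 28 of Col9a2. Col1a2, which was not called in type II, was likewise at 80.5 CPM in the Fabp7 cells and 30.2 CPM in the others. Col9a3, also not called and with 91 type II UMIs, went the other way, at 58.3 and 75.4 CPM. Without such cells in any population none of the 3 passed the test. The log2 differences were then 1.26 for Col23a1 (adjusted p = 0.440), 0.23 for Col5a2 (adjusted p = 0.888) and 1.13 for Col9a2 (adjusted p = 0.0871), and the count of higher genes fell to 0. With the smaller type II sums these estimates are also less precise. Without mouse 2 or mouse 4 Col5a2 missed the threshold too (adjusted p = 0.0985 and 0.247). With cells above the median depth only, Col5a2 (log2 difference 1.13) and Col9a2 (1.10, adjusted p = 0.134) missed it. The satellite glia list was at 6.64 ± 1.76 times the type I mean in type II, with 3 of 5 genes higher. The neuron list stood at 0.617 ± 0.178 times, with 6 of 8 genes lower, and the Schwann cell list at 0.961 ± 0.232 times. The fibroblast list was at 2.58 ± 0.804 times the type I mean in type II, where 2 of 11 genes were higher. Fmod was among them, at 143 CPM in type II against 0.810 to 1.24 CPM over the subtypes, and without Fmod the list stood at 333 CPM in type II against 170 to 186 CPM in the subtypes.

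Col19a1, a FACIT collagen that in the mouse brain is made by neurons, had 0 of 1288798 UMIs in type II and 587 in type I, where the 12 sums had 5.32, 7.35 and 9.79 CPM. A floor of 3 counts over the group makes it at least 3.14-fold lower in type II (adjusted p = 0.000676). Putative neurons had it at 11.1, 5.62, 7.54 and 4.28 CPM, within or near the type I range.

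The relation to carried-over cells was also described inside the populations. Within each mouse and population the 5% of cells with the largest share of UMIs from a marker list were called marker-rich, 348 cells for each list, and collagen levels in them were set against those in the other cells for the 15 genes with at least 400 UMIs. The ratio is a geometric mean over the 4 mice, no test was made, and cells rich in 1 list can be rich in another. The share of UMIs is a proportion, so a list that takes more leaves less for the rest. Marker-rich cells also differed in depth, holding 2.58% (red blood cell) to 4.16% (cartilage and bone) of all UMIs, and 5.55% for the neuron list. Col11a1, Col19a1, Col20a1, Col24a1 and Col27a1 were among the genes higher in shallow type I cells, described below. The part of depth in the ratios was not tested. The share of all genes above or below 1 in every mouse was not computed, so counts of such collagen genes only describe them.

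Schwann-rich cells held more of the abundant FACIT genes. Col9a3 was at 145 CPM in them and 74.9 CPM in the other cells, a ratio of 1.92 (1.68 to 2.16 over mice). Col1a2 had a ratio of 1.95, Col15a1 1.84, Col14a1 1.77, Col11a2 1.55 and Col16a1 1.42, and these 6 genes were above 1 in every mouse. The Schwann list itself was at 7258 CPM in the rich cells and 3281 CPM in the others. In neuron-rich cells most of the same genes were lower in every mouse, at 0.542 for Col9a3, 0.640 for Col1a2, 0.576 for Col14a1, 0.456 for Col15a1 and 0.485 for Col16a1. Col5a2 was the sixth below 1 in every mouse (1.85 CPM in neuron-rich cells and 5.30 CPM in the others).

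Fibroblast-rich cells held more Col9a2 (ratio 1.97), Col1a2 (1.54), Col15a1 (1.35), Col27a1 (1.26) and Col14a1 (1.24), each above 1 in all 4 mice. Cells rich in limbus and fibrocyte markers held more Col11a1 (1.88), Col9a2 (1.81), Col20a1 (1.64), Col27a1 (1.31) and Col11a2 (1.28) in all 4 mice. Col9a2 was thus high with both connective tissue lists. Col1a2 was at 1.08 in limbus-rich cells with 3 of 4 mice above 1, and Col9a3 at 0.965 in fibroblast-rich cells.

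The genes that separate the type I subtypes differed in how they went with these lists. Col24a1 had a ratio of 0.816 in fibroblast-rich and 0.865 in cartilage-and-bone-rich cells, below 1 in every mouse, and in limbus-rich cells one of 1.22 with 3 of 4 mice above 1. Col11a1 had its largest ratio in limbus-rich cells, given above, was at 1.64 in fibroblast-rich cells (3 of 4 mice above 1), and was above 1 in every mouse in cartilage-and-bone-rich (1.48) and satellite-glia-rich cells (1.53). Col27a1 was above 1 in every mouse in cells rich in red blood cell (1.63), pericyte and smooth muscle (1.44) and endothelial markers (1.30), as in fibroblast-rich and limbus-rich cells. In Schwann-rich and neuron-rich cells it was at 1.11 and 1.13, on either side of 1 over mice. With the richest 2% of cells it was at 1.17 for fibroblast (3 of 4 mice), 1.05 for limbus (2 of 4) and 1.10 for endothelial markers (2 of 4). Col19a1 was at 1.59 in neuron-rich cells (1.38 to 1.89) and was also above 1 in every mouse in pericyte-rich (2.18), red-blood-cell-rich (1.78) and cartilage-and-bone-rich cells (1.22). With the richest 2% of cells its neuron ratio was 1.11, with 2 of 4 mice above 1.

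**Figure D4:**
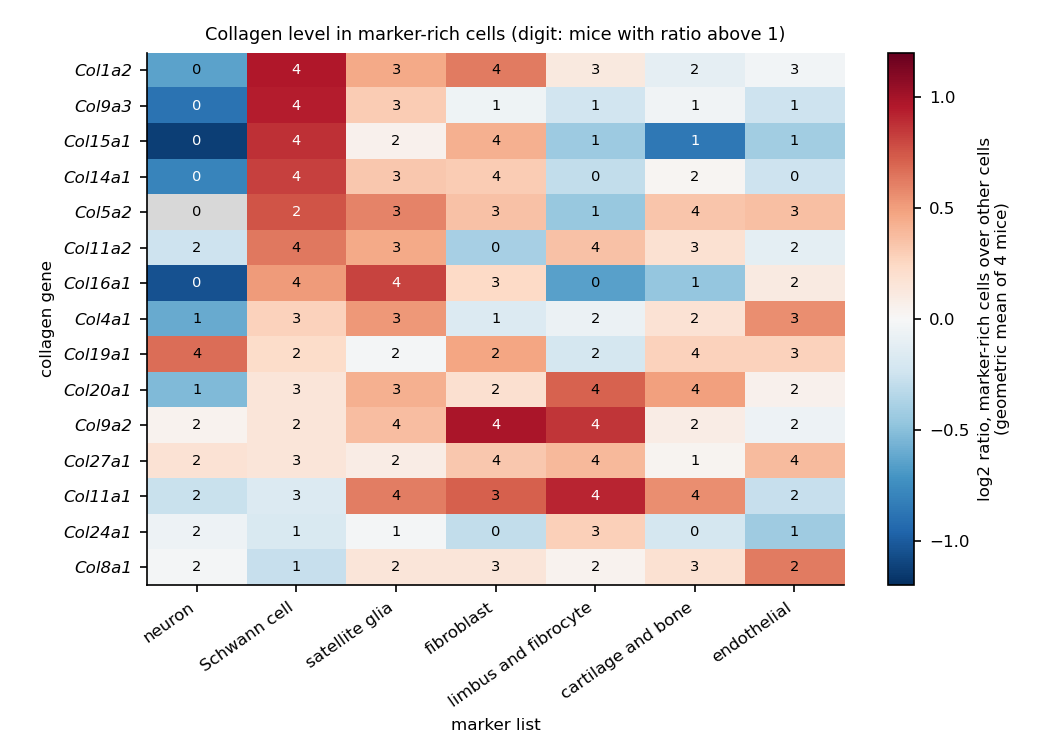
Log2 ratio of the level of 15 collagen genes in the 5% of cells richest in each marker list over the other cells (colour, geometric mean of 4 mice), with the number of mice above 1 as a digit and grey where a mouse had no UMI. Col1a2, Col9a3, Col15a1 and Col14a1 are high in Schwann-rich and low in neuron-rich cells, Col9a2 is high in fibroblast-rich and limbus-rich cells, and Col24a1 is near or under 1 in most columns.

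Shallow cells can lack UMIs of all fibroblast genes by sampling alone, as the list stood at 144 to 221 CPM in type I. The cells without any such UMI, which need not be free of carried-over RNA, were still taken by themselves. They were 1167 cells (17.4%) with 10.6% of all UMIs, and their median of 6355 UMIs compares with 14107 in the cells that had at least 1. In these cells Col27a1 kept its pattern, at 60.1 ± 25.2 CPM for IA, 51.9 ± 2.01 CPM for IB and 26.1 ± 5.28 CPM for IC, and the test still called it in IA against IC (log2 difference 1.27, adjusted p = 1.49e-07) and in IB against IC (1.04, adjusted p = 0.00147). Col24a1 was at 3.55 ± 2.45 CPM in type IA, 21.5 ± 4.33 in IB and 13.7 ± 10.7 in IC, and Col11a1 at 16.4 ± 3.58, 14.7 ± 8.18 and 4.89 ± 2.73 CPM, both too low there for the test. Col1a2 in putative neurons was at 12.8 ± 9.75 CPM in such cells and at 57.5 ± 18.0 CPM in all of them, and its log2 difference from type I became -0.77 (adjusted p = 0.721). The abundant FACIT genes were lower in the same putative cells too, Col9a3 at 12.8 ± 9.75 CPM against 69.4 ± 9.30 CPM in all of them and Col14a1 at 5.18 ± 6.60 CPM against 25.1 ± 4.36 CPM. Genes called higher in putative neurons varied there. Col8a1 was at 23.9 ± 19.6 CPM against 30.7 ± 10.6 CPM in all of them, and Col11a1 at 15.3 ± 22.4 CPM against 15.2 ± 6.20 CPM. Col2a1 and Col4a4 had no UMI in these cells. The smallest sum of this set held 1 cell, in type II. The putative sums of the set held 38770 to 144322 UMIs, so these putative levels and the sign change of Col1a2 rest on few collagen UMIs. The Col9a3 difference between types IA and IC became 0.16 (adjusted p = 0.636). Only 5 collagen genes could be tested in this set. Col24a1, Col11a1 and Col27a1 were also higher in shallow type I cells, described below, and the part of depth in the levels of this set was not tested.

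Col1a1, the partner chain of Col1a2, is described because its values stood out once seen. Over all cells it was at 1.65, 1.61, 0.851 and 13.3 CPM in mice 1 to 4. In mouse 4 it was at 13.9 CPM in putative neurons and 13.6 CPM in type II, and among the subtypes at 14.2 CPM for IA, 10.4 CPM for IB and 14.4 CPM for IC, so the same mouse was high in all 5 populations. It passed the test in no comparison. Col1a2 was at 29.0, 30.6, 28.7 and 39.0 CPM over all cells and Col3a1 at 1.60, 2.05, 2.04 and 2.38 CPM, with smaller differences between mice. The bone matrix genes Bglap and Ibsp were also highest in mouse 4, at 1.31, 1.87, 0 and 103 CPM and at 5.58, 10.3, 1.32 and 38.7 CPM in mice 1 to 4. The part of bone RNA in the Col1a1 level was not tested.

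**Figure D5:**
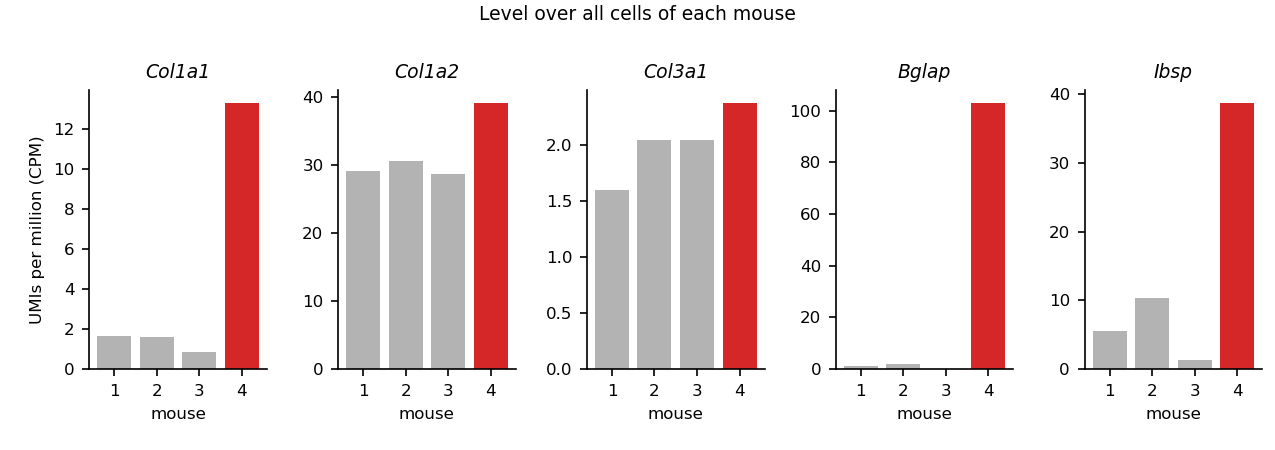
Level in CPM over all cells of each mouse for Col1a1, Col1a2, Col3a1 and the bone matrix genes Bglap and Ibsp, with mouse 4 in red. Col1a1 is at 13.3 in mouse 4 and 0.851 to 1.65 in the others, while Col3a1 differs little.

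Type I cells were also split, after the data had been seen, at the median UMI count of their own mouse and subtype, and the shallower cells were set against the deeper ones. In this edgeR test 8 of 26 collagen genes were higher in shallow cells and 1 was lower, against 17% of all 12942 genes higher, 16.7% lower and 33.7% in either direction. Col19a1 was at 13.8, 8.40, 8.71 and 11.3 CPM in the shallow cells of mice 1 to 4 and at 6.30, 6.29, 5.23 and 5.48 CPM in the deep cells, with no overlap. The log2 difference was 0.79 ± 0.13 (adjusted p = 1.3e-08). Col20a1, a FACIT gene, followed with 0.66 ± 0.14 (adjusted p = 2.44e-05), and the subtype genes Col24a1 (0.39 ± 0.10), Col11a1 (0.40 ± 0.12) and Col27a1 (0.27 ± 0.06) were higher as well. Col9a3 was the gene lower in shallow cells (-0.12 ± 0.04, adjusted p = 0.0204). Of the 10 fibroblast genes tested none passed in either direction by edgeR, with a median log2 difference of 0.030, and of the 8 Schwann cell genes 1 was higher and 2 were lower. Of the 8 neuron genes 1 was higher and 5 were lower in shallow cells, 3 of 4 type I genes were higher, and 2 of 7 pericyte and smooth muscle genes were higher. Which feature of a cell lies behind its depth was not tested.

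Type IV genes lie in head-to-head pairs, and the data give each pair. Col4a1 and Col4a2 start 21 bases apart on chromosome 8 and had 486 and 372 UMIs, with 8.16 ± 4.71 and 6.44 ± 6.33 CPM in putative neurons, 10.0 ± 5.47 and 5.79 ± 6.17 CPM in type II and 5.32 ± 0.775 and 4.70 ± 0.287 CPM in type IA. Col4a3 and Col4a4 start 72 bases apart on chromosome 1 and had 71 and 83 UMIs. Col4a5 and Col4a6 start 1309 bases apart on chromosome X and had 288 and 12 UMIs, so this pair was unequal. Of the 4 type IV genes tested only Col4a4 in putative neurons passed. Col15a1 and Col16a1, abundant genes that passed in no comparison, were at 10.7 ± 1.66 and 13.8 ± 2.26 CPM in putative neurons, 17.3 ± 14.0 and 17.4 ± 3.57 CPM in type II, and over the subtypes 7.30 to 8.88 and 11.6 to 14.6 CPM. The remaining tested genes without a call were Col4a1, Col4a2, Col4a5, Col5a1, Col6a2, Col20a1 and Col1a1.

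Genes that modify, process, bind or degrade collagens were counted by list in the same test. Of 19 genes for modification and export, 5 were higher and 2 lower in type IA than in IC, against 16.3% and 16% of all genes, so the calls in either direction were near the background of 32.3%. Among them P4ha2, a prolyl hydroxylase subunit, was higher in IA than in IC (log2 difference 1.35 ± 0.33, adjusted p = 0.000913) and Plod2, a lysyl hydroxylase, lower (-0.88 ± 0.13, adjusted p = 1e-07), as was P4ha3 (-0.50 ± 0.08). Serpinh1, the collagen chaperone, was higher in IA than in IC (0.29 ± 0.07, adjusted p = 0.000495).
In the list for propeptide processing and crosslinking, Pcolce2, an enhancer of propeptide cleavage, was lower in IA than in IC (-1.25 ± 0.19, adjusted p = 4.78e-07) and higher in type II than in type I (1.60 ± 0.43, adjusted p = 0.0041), and 0 of 8 genes were higher and 2 lower in IA than in IC, against the same shares of all genes. Adamts2, which cleaves the propeptides, was lower in IA than in IB (-0.88 ± 0.12, adjusted p = 2.02e-07). In type II against type I, where 11.9% of all genes were higher and 11.5% lower, 4 of 10 degradation genes were higher, among them the membrane-bound proteinases Mmp14 (3.04 ± 0.35, adjusted p = 8.37e-10) and Mmp16 (2.40 ± 0.49, adjusted p = 0.00014) and the inhibitors Timp1 (1.58 ± 0.33) and Timp2 (1.06 ± 0.19). Of 10 receptors 2 were higher in type II, Adgrg1 (2.94 ± 0.50, adjusted p = 5.72e-06) and Itgb1 (0.81 ± 0.13, adjusted p = 2.82e-06). Of 12 basement membrane partners none passed in either direction in type II. Without cells with 3 or more Fabp7 UMIs, 1896 of all genes were called in type II against type I, compared with 3040 in the main test. The part of glial RNA in the type II calls of these lists was not tested.
In putative neurons against type I, where 14.2% of all genes were higher and 9.13% lower, 5 of 19 modification genes were higher and 1 lower, 3 of 8 processing genes, 6 of 10 receptors and 7 of 10 degradation genes were higher, and 4 of 12 basement membrane partners were higher and 1 lower. The crosslinking enzyme Lox (2.63 ± 0.22, adjusted p = 2.63e-14) is also on the fibroblast list.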

How the data were processed

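Raw UMI counts per gene and cell were deposited by the authors in 1 table per mouse, with a cell annotation of class and type I subtype, which was used as it stands. Cell Ranger 2.0.1, Seurat 1.4 and build mm10 are named in the submitters' processing notes. The sources used here do not give the steps by which cells were filtered and labelled. The combined count table and the normalized table, which repeat these cells, were not used here. No column of per-sample values in the tables used was left out (0). No doublets were called or removed, and 26 cell barcodes occurred in more than 1 library.

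The counts were summed per mouse and population (20 sums, at least 15 cells each). A single edgeR model (version 4.0.16, R 4.3.3) covered all sums, with filterByExpr, TMM scaling and a two-sided quasi-likelihood test. It kept 13005 genes at a biological coefficient of variation of 0.0486. Populations of 1 mouse share an animal, so the mouse is a block. Type I in the comparisons with putative and type II neurons is the unweighted mean of IA, IB and IC. SEs come from the estimate and its F statistic, and the threshold was an adjusted p under 0.05. The script was tested on simulated counts first. Levels are CPM with mean ± SD over 4 mice, and bounds from a floor of 3 counts cover counting error only. Alternatives were DESeq2 1.42.0, its size factors, no low-count filter, no block, each mouse left out and the cell sets named in the text. The shallow and deep split, the fibroblast list without Fmod and the levels and marker-rich counts without each mouse were chosen after seeing the data.

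Genes with full values are those called in any comparison or at 10 CPM or more in any population (22 genes). Of other genes up to 4 per list were named, those called with the largest difference in type II or between type I subtypes; Timp1, Timp2, Serpinh1, Lox, Itgb1, the marker genes and Col1a1 beside them were chosen after their values were seen or for their role. The members and lists were chosen with earlier results of these data known. Marker lists, including those of macrophages (1.05 ± 0.200 times in putative neurons relative to type I), supporting cells (1.53 ± 0.173), red blood cells (1.27 ± 0.476) and cartilage and bone (1.77 ± 0.739), hold no collagen gene. Gene positions are from GENCODE M21 (GRCm38), where all 42 symbols matched, and promoter sequences from RefSeq (GRCm38.p6), where 33 of 42 matched.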

Additional observations from a re-analysis of the deposited data

Results flagged for a closer look

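Among 114 sets of 4 mice (a named gene in 1 population), 15 held a mouse that stood apart from the other mice by more than Dixon's 95% limit. Chance flags about 1 in 20 groups. Of the 15, 9 were in mouse 4, and no cause was tested.

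Mouse 4 was highest for Col1a1 at 14.16 CPM in type IA and 14.36 CPM in type IC, for Col1a2 at 38.1 CPM in type IA and for Col14a1 at 30.95 CPM in type IC. It was also highest for Col18a1, at 2.088 CPM in type IB and 2.051 CPM in type IC, and in type II for Col6a1 at 4.544 CPM and Col16a1 at 22.72 CPM. The Col6a1 value rests on 1 UMI. For Col4a1 in type IA mouse 4 was lowest, at 4.164 CPM. Mouse 3 was highest for Col14a1, at 35.86 CPM in type II and 34.48 CPM in type IB. Mouse 2 stood apart in type IB for Col4a4 at 1.236 CPM and Col8a1 at 7.108 CPM. Mouse 1 stood apart for Col3a1 in type II at 3.659 CPM, which rests on 2 UMIs, and for Col23a1 in type IC at 1.818 CPM.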

How the results depend on the processing

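For the 27 called differences of single genes, 382 alternative values were computed. Of these 358 kept their direction and their side of the threshold, 21 missed the threshold and 3 changed sign. Of the 27 differences 15 held under every alternative that could be fitted. Among these 15, only the Col27a1 differences could be fitted without the cells that hold a fibroblast-list UMI. The other called differences fitted in that setting missed the threshold or changed sign. Without the cells that hold a fibroblast-list UMI, which leaves few UMIs and 5 testable collagen genes, Col1a2 (-0.77) and Col11a2 (-0.26) in putative neurons and Col9a3 in type IA against IC (0.16) changed sign. That setting gave 0 genes higher and 0 lower in type II, 0 higher and 1 lower in putative neurons, 1 higher and 0 lower in IA against IC, 0 lower in IA against IB and 1 higher in IB against IC. Summed collagen levels in it were 224 CPM in type II and 209 CPM in putative neurons. The setting left 2, 2, 3 and 1 type II cells in mice 1 to 4. Its list includes Fmod, at 143 CPM in type II, so type II cells were also left out for that gene. Without cells with 3 or more Fabp7 UMIs 0 genes were higher in type II. With type II cells that had a Prph UMI only, 5 were higher and 2 lower, and with cells above the median depth 1 was higher. In IA against IB, 2 genes were higher with no low-count filter and 1 without the 5% of cells richest in fibroblast markers, while 1 was lower with no replicate block and 1 with DESeq2. In IB against IC, 1 was lower without those fibroblast-rich cells. The block for the mouse, which pairs the populations, ended the calls of Col14a1 in IA against IC and Col9a3 in IA against IB when left out and changed no other call.

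Leaving out each mouse in turn gave 2 to 3 genes higher and 1 lower in type II, 13 to 15 higher and 0 lower in putative neurons, 2 to 3 higher and 2 to 3 lower in IA against IC, 0 to 1 higher and 2 lower in IA against IB, and 2 to 3 higher and 0 to 1 lower in IB against IC. In shallow against deep cells it gave 6 to 8 higher and 0 to 1 lower. Summed collagen levels ran from 397 to 462 CPM in putative neurons, 320 to 380 in type II, 281 to 304 in IA, 299 to 314 in IB and 279 to 298 in IC. Collagen genes above 1 in every mouse in fibroblast-rich cells were 5 to 8 (3 with the richest 2% of cells) and in Schwann-rich cells 7. Those below 1 in neuron-rich cells were 6 to 8, and the matching shares of all genes were not computed. Causes of these changes were not tested. Depth limits the type II results, since the 95 cells hold 1288798 UMIs.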
